A study of Mus musculus with 8 samples.

Results

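Levels of 9 genes of the muscle Z-disc and its stretch sensors were compared in ischemic leg muscle of mice given placebo or praliciguat chow. The genes were taken by symbol: the calsarcins Myoz1, Myoz2 and Myoz3, the sarcomeric alpha-actinins Actn2 and Actn3, the LIM proteins Csrp3 and Fhl1, and the ankyrin repeat proteins Ankrd2 and Ankrd23. All 9 of the 9 had a row among the 24848 genes of the tables, and all 9 were among the 13569 genes tested. The 8 libraries came from tibialis anterior muscle. All mice were male Leprdb/db, a genotype without functional leptin receptor signalling that makes them obese and diabetic, in both groups alike. Hind limb ischemia surgery was done on every animal 28 days before the muscle was collected. The 4 placebo libraries came from mice on chow without drug. The 4 praliciguat libraries came from mice on chow with 75 ppm of praliciguat, a stimulator of soluble guanylate cyclase, which makes cGMP. The diets began on day -3 and lasted 31 days, and the drug level aimed at the plasma peak of an oral 10 mg/kg/day. No age is given for the mice. Nor do the labels state that every library came from its own animal; the p-values below cover only the spread among libraries, part of which may be technical.

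The Z-disc is the boundary between neighbouring sarcomeres, where alpha-actinin crosslinks actin filaments and holds the ends of titin. Calsarcins bind alpha-actinin and tether the phosphatase calcineurin there. Among them, Myoz2 is the form of slow fibres and heart, while Myoz1 and Myoz3 are forms of fast fibres. Actn2 is made in all fibres and Actn3 in fast fibres only. Csrp3 (muscle LIM protein), Fhl1 and the ankyrin repeat proteins sit at the Z-disc or along titin in the I-band, and several of them are known to respond to stretch or load.

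Total expected counts per library ranged from 21099764 to 31896205, and the 9 genes together took between 1.24% and 1.71% of them. The defining genes of skeletal muscle fibres were high in all libraries (summed level of 5 genes 57277 to 72605 CPM, that is, counts scaled to library size). Of 4 markers of heart muscle, which also uses Actn2, Csrp3 and Myoz2, Nppa was listed at 0 in all 8 libraries and Myl7 reached at most 1 count. Ryr2 was near the limit of detection (0.348 and 0.356 CPM), and Myh6 had 49.97 ± 24.8 CPM in placebo against 9.99 ± 8.48 CPM (SD, n = 4). The summed level of the 2 that were tested, Myh6 and Ryr2, ran from 16.7 to 71.2 CPM in placebo and from 3.03 to 21.0 CPM with praliciguat. Praliciguat replicate 3 stood apart from the other libraries of its group. It had 4471 CPM of 4 fibroblast markers and 492 CPM of 4 macrophage markers, against 589 to 1461 and 42.7 to 95.7 CPM in the other praliciguat libraries, and 1057 to 2096 and 54.8 to 151 CPM in placebo. In bulk muscle, fewer fibres of a type and less RNA per fibre cannot be told apart.

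With praliciguat, Myoz2 and Csrp3 had the lowest levels relative to placebo, Actn2, Fhl1 and Ankrd2 lay moderately lower, and Actn3 lay higher. Myoz1, Myoz3 and Ankrd23 had log2 ratios (the log2 fold change of praliciguat against placebo) between 0.08 and 0.16. None of the 9 passed edgeR's quasi-likelihood test at an adjusted p under 0.05 over all genes. In that test 0 of 13569 genes were called higher (0%) and 0 lower (0%), and 778 had an unadjusted p under 0.05. Without placebo replicate 3, 5 genes were called lower, none of them among the 9. At an unadjusted p under 0.05, 4 of the 9 genes lay lower and 0 higher, where 3.78% and 1.95% of all genes did so. Fhl1 was among the 4 and only just passed (edgeR unadjusted p = 0.049976). DESeq2 called 2 of the 9 lower (Myoz2 and Csrp3) against 0.842% of all genes, and limma-voom called 0 of the 9 and 0.0147% of all genes lower. In 1 of the 9 genes all praliciguat libraries lay below placebo, and in 0 above it, against 2.54% and 1.32% of all genes. Of the 9 log2 ratios 5 were below 0, against 44.8% of all genes, with a median of -0.53 against 0.02 over all genes. The 9 genes were chosen with earlier results of these data known, so these counts describe them and do not test them as a list.

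**Figure D1:**
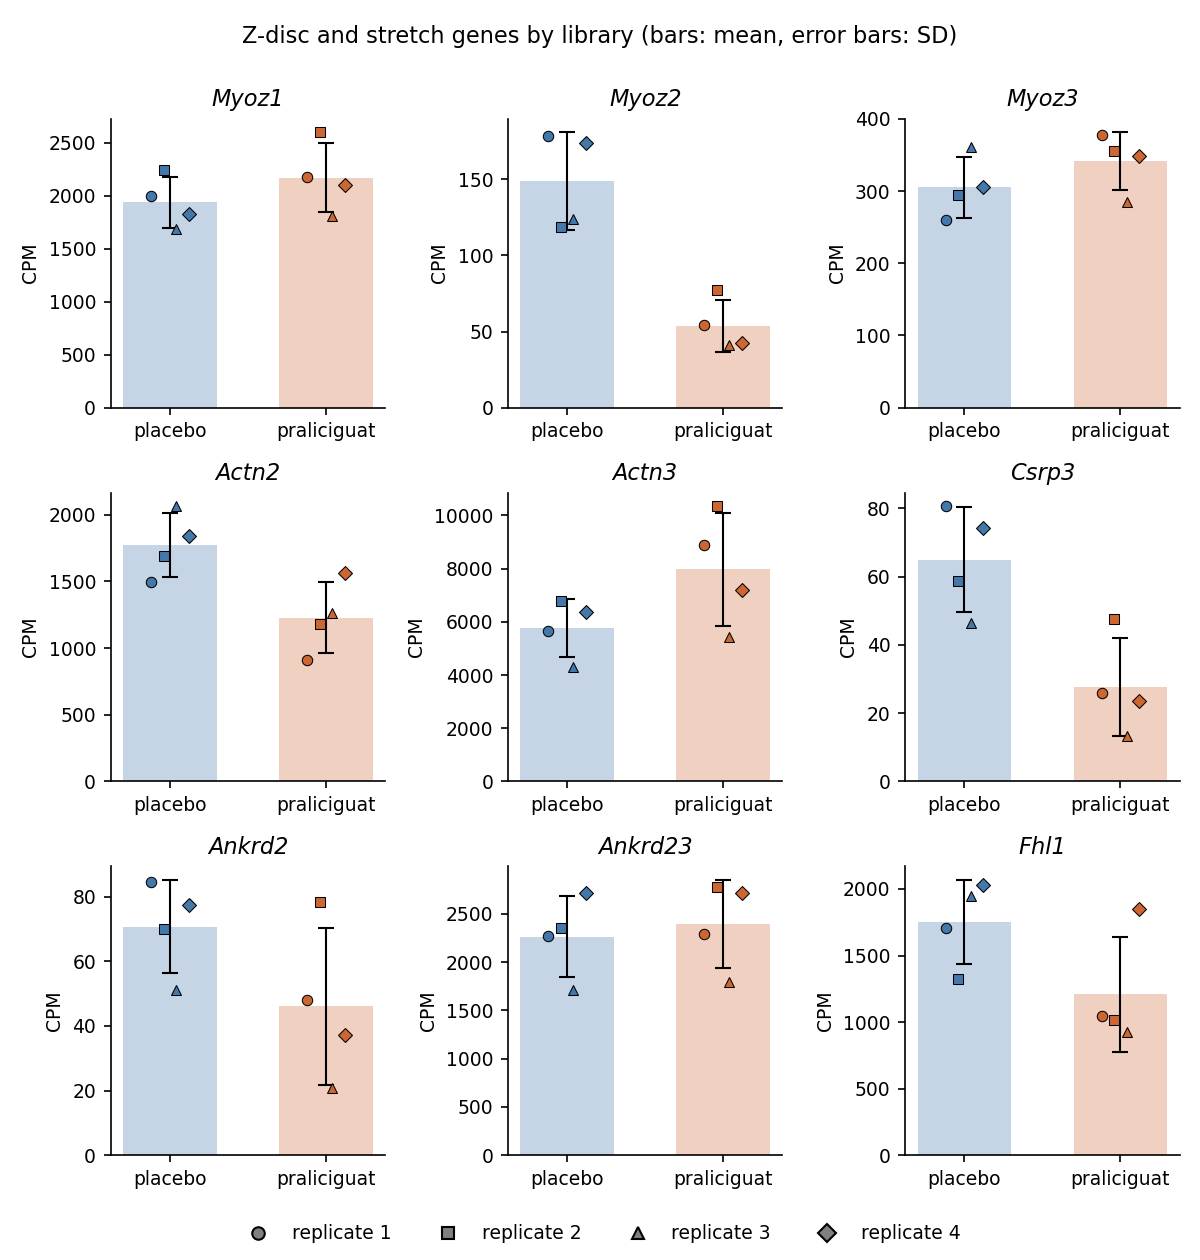
Level of each of the 9 genes (y axis, CPM) in the 4 placebo and 4 praliciguat libraries. Bars are group means, error bars SD, and symbols single libraries. The Myoz2 groups do not overlap (118 to 179 against 40.9 to 77.4 CPM), whereas those of the other 8 genes do.

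Among the calsarcins, Myoz2 differed most. Its level was 179, 118, 124 and 174 CPM in placebo replicates 1 to 4, and 54.2, 77.4, 40.9 and 42.2 CPM in praliciguat replicates 1 to 4. Every praliciguat library lay below every placebo library. The mean was 149 ± 31.9 against 53.7 ± 16.9 CPM (SD, n = 4 each), lower by 2.77-fold (log2 ratio -1.47, SE 0.23). This gave an edgeR adjusted p of 0.115 and a DESeq2 adjusted p of 1.04e-06. The sample titles carry numbers of a lower or an upper run, whose meaning the labels do not give, and each run held 2 libraries per group. There Myoz2 differed by -1.17 and -1.82 on the log2 scale. Without praliciguat replicate 3 the log2 ratio was -1.36 (edgeR adjusted p = 0.103).

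Myoz2 and Csrp3 were the lowest of the 9 relative to placebo, and Myoz2 and Actn2 enter the isoform shares below. For Myoz2, Csrp3 and Actn2 the RefSeq sequence around a transcription start is therefore shown (build GRCm38.p6, 5′ to 3′ on the gene's strand). Each window runs from 250 bases before to 50 after the start. Capitals mark matches to the MEF2 motif and to the E-box letters CANNTG. The latter are a general pattern that includes sites of myogenic factors, and not every match is such a site.
Myoz2, chr3:123034938-123035237, minus strand: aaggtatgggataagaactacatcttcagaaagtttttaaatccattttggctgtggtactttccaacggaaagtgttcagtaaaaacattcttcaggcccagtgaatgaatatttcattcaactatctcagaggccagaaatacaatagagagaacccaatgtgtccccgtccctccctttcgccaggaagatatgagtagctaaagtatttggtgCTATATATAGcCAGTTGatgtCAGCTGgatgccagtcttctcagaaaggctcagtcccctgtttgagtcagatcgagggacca
Csrp3, chr7:48848002-48848301, minus strand: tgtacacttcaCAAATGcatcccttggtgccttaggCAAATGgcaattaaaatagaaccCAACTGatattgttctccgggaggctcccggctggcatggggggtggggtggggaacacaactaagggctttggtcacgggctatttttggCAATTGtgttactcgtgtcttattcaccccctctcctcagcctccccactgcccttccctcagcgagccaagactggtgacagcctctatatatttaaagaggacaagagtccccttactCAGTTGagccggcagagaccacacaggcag
Actn2, chr13:12340683-12340982, minus strand: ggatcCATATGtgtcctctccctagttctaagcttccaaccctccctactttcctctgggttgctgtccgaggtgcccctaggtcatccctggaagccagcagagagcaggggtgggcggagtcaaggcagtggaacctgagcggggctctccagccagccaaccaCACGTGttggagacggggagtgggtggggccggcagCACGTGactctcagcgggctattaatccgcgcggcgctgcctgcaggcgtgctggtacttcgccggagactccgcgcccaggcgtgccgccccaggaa

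The table of start sites held 9 windows of 6 of the 9 genes. Actn3, Myoz1 and Myoz3 are not shown. The MEF2 motif matched in 1 of the 9 windows, that of Myoz2, where its first base lay 33 bases before the start, followed by E-boxes 22 and 12 bases before it. Both strands were searched, and since E-boxes read alike on both each place counts once. Of all 32544 windows 3.16% held a MEF2 match and 72.3% an E-box. The core letters of NFAT sites, GGAAA, matched 2 times in the Myoz2 window, 1 time in that of Actn2 and 0 times in the Csrp3 window shown, and 61.5% of all windows held them. CATTCC (14.6% of all windows) and TATAAA (13.6%) had no match in these 3. The second Csrp3 window, at another start, had 4 E-boxes and no MEF2 match. A match describes letters and does not show that a factor binds.

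The fast fibre calsarcins overlapped between the groups. Myoz1 (chr14:20649102-20656540, minus strand, by RefSeq on GRCm38.p6, as are the other positions given) was at 1998, 2239.7, 1685 and 1826 CPM in placebo and at 2172, 2596, 1806 and 2099.5 CPM with praliciguat. The groups overlapped, with a mean of 1937 ± 239 against 2168 ± 326 CPM (SD, n = 4) and a log2 ratio of 0.16, SE 0.14 (95% interval -0.16 to 0.48; edgeR adjusted p = 0.984). Myoz3 was at 259.6, 295, 361 and 305 CPM in placebo and at 377, 356, 285 and 348 CPM with praliciguat, also with overlap. Its log2 ratio was 0.16, SE 0.13 (95% interval -0.13 to 0.45), 0.40 in the lower run alone and -0.08 in the upper run alone. With 1 library left out, the log2 ratio of Myoz1 ran from 0.06 (without praliciguat replicate 2) to 0.24 (without praliciguat replicate 3), and that of Myoz3 from 0.10 (without placebo replicate 1) to 0.25 (without placebo replicate 3).

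As a share of the summed calsarcin transcripts in TPM, which are scaled for gene length, Myoz2 was lower with praliciguat. Its share was 8.84, 5.41, 7.17 and 9.22% in placebo replicates 1 to 4 and 2.60, 3.12, 2.38 and 2.12% in praliciguat replicates 1 to 4. The mean share fell from 7.66 ± 1.75% to 2.55 ± 0.427% (SD, n = 4; exact two-sided permutation p = 0.0286, which is the lowest value possible here; 0.04 after adjustment over 7 shares). Myoz1, the largest of the 3, went the other way, and its share rose from 87.5 ± 2.08% to 92.4 ± 0.342% (exact two-sided permutation p = 0.0286, adjusted 0.04, n = 4). The Myoz3 share was 4.86 ± 1.13% and 5.07 ± 0.497%, with overlap (exact two-sided permutation p = 0.714, n = 4). Shares of 1 family sum to 100, so they are not independent of one another. All 7 shares were chosen with earlier results of these data known. Their p-values, here and below, therefore describe the shares and are not independent tests. An adjusted p of 0.04 rests on 5 of the 7 shares having the smallest possible p. On shares of expected counts in place of TPM, 4 had it and the adjusted p was 0.05, at the threshold and not under it, for Myoz2. For Myoz1 it was 0.1, with a difference of 3.72 percentage points.

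**Figure D2:**
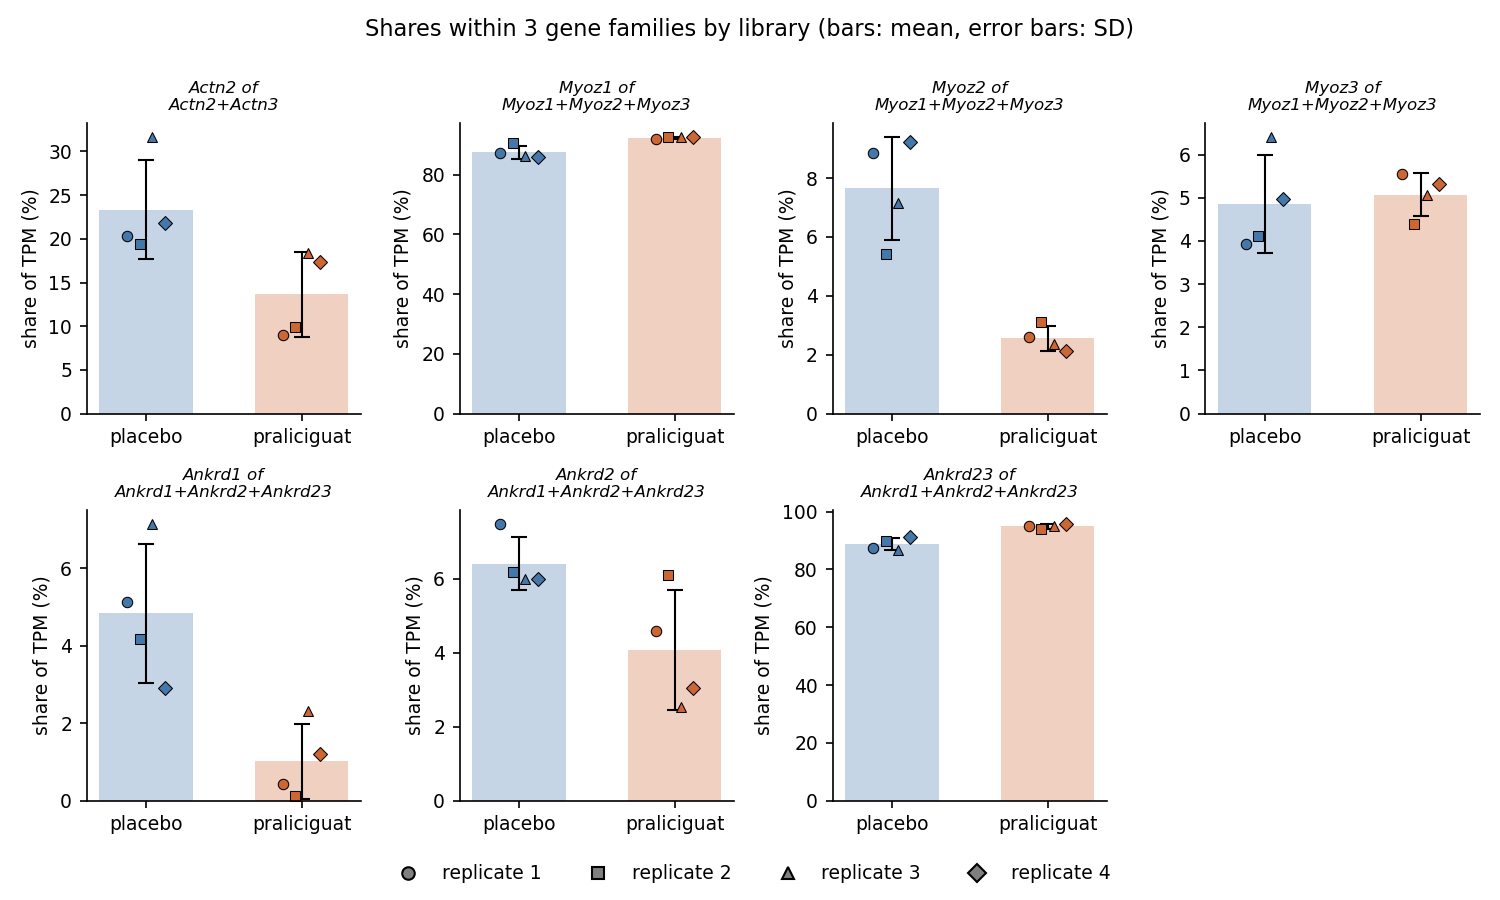
Share of each gene in the summed TPM of its family (y axis, percent) in 4 placebo and 4 praliciguat libraries, with bars for means and error bars for SD. The shares of Actn2, Myoz1, Myoz2, Ankrd1 and Ankrd23 separate the groups, while those of Myoz3 (4.86% against 5.07%) and Ankrd2 (6.41% against 4.07%) overlap.

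The 2 alpha-actinins lay on opposite sides of placebo. Actn2 (chr13:12269426-12340732, minus strand), the form of all fibres, was at 1496, 1691, 2064 and 1838 CPM in placebo and at 909, 1182, 1264 and 1562 CPM with praliciguat. Its groups overlapped by 1 library, praliciguat replicate 4, with means of 1772 ± 239.8 and 1229 ± 269 CPM (SD, n = 4; log2 ratio -0.53, SE 0.17, edgeR adjusted p = 0.581). Actn3 (chr19:4861216-4877909, minus strand), the fast fibre form, was at 5659, 6769, 4299 and 6365 CPM in placebo and at 8904, 10342, 5414 and 7203 CPM with praliciguat. Praliciguat replicate 3 lay inside the placebo range and the other 3 praliciguat libraries above it, with means of 5773 ± 1085 and 7966 ± 2130.5 CPM (log2 ratio 0.46, SE 0.22, edgeR adjusted p = 0.899). With 1 library left out, the log2 ratio of Actn3 ran from 0.31 to 0.61 and that of Actn2 from -0.66 to -0.41. With praliciguat replicates 3 and 4 both left out, that of Actn3 was 0.74.

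Taken per library, the balance of the 2 actinins, also a share chosen with earlier results known, separated the groups. Actn2 was 20.3, 19.4, 31.7 and 21.8% of the summed Actn2 and Actn3 TPM in placebo, and 8.97, 9.94, 18.4 and 17.3% with praliciguat. The mean share fell from 23.3 ± 5.66% to 13.7 ± 4.89% (SD, n = 4; exact two-sided permutation p = 0.0286, adjusted 0.04 over 7 shares). The gap between the highest praliciguat share and the lowest placebo share was small beside the spread within each group. In both groups replicates 3 and 4, of the upper run, had the higher shares. Within the lower run the mean share differed by -10.4 percentage points between the groups, and in the upper run by -8.88. On shares of expected counts the adjusted p was 0.05.

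Of the LIM proteins, Csrp3 (chr7:48830398-48848051, minus strand) was at 80.6, 58.7, 46.4 and 74.2 CPM in placebo and at 26.0, 47.7, 13.4 and 23.5 CPM with praliciguat. Praliciguat replicate 2 lay just above the lowest placebo library, and the other 3 praliciguat libraries lay below all of placebo. The mean was 65.0 ± 15.4 against 27.7 ± 14.5 CPM (SD, n = 4), lower by 2.35-fold (log2 ratio -1.23, SE 0.35). The edgeR adjusted p was 0.473 and the DESeq2 adjusted p 0.0383. Without both praliciguat replicates 3 and 4 the log2 ratio was -0.82, and without praliciguat replicate 3 alone it was -1.0007.

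Fhl1 (chrX:56731209-56793346, plus strand), a gene whose protein has LIM domains in tandem, was at 1707, 1324, 1943 and 2029.7 CPM in placebo and at 1047, 1015, 924 and 1851 CPM with praliciguat. Of the praliciguat libraries 3 lay below all of placebo, while replicate 4 lay within the placebo range. The mean was 1751 ± 316 against 1209 ± 431 CPM (SD, n = 4; log2 ratio -0.53, SE 0.24, edgeR adjusted p = 0.872). Without praliciguat replicate 4 the log2 ratio was -0.81 (edgeR adjusted p = 0.410). With each library left out in turn it ran from -0.81 to -0.42.

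Ankrd2 (chr19:42035917-42045111, plus strand), a stretch-responsive ankyrin repeat protein most abundant in slow fibres, was at 84.4, 69.9, 51.0 and 77.5 CPM in placebo and at 48.1, 78.3, 20.7 and 37.1 CPM with praliciguat. Praliciguat replicate 2 lay among the placebo libraries and the other 3 below them. The mean was 70.7 ± 14.4 against 46.1 ± 24.3 CPM (SD, n = 4; log2 ratio -0.62, SE 0.36, edgeR adjusted p = 0.970). The log2 ratio was -1.0025 without praliciguat replicate 2 and -0.37 without praliciguat replicate 3, so 1 library moved it by more than 1.5 times in either direction. Ankrd23 (chr1:36530193-36536556, minus strand), the most abundant of the family here, was at 2275, 2351, 1711 and 2721 CPM in placebo and at 2289, 2782, 1795 and 2715 CPM with praliciguat. The groups overlapped throughout (log2 ratio 0.08, SE 0.18, 95% interval -0.33 to 0.49). In GENCODE M21, 78.2% of the exonic bases of Ankrd23 are shared with the model Gm42417 on the same strand, so its count may hold reads of that model.

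Ankrd1, the third muscle ankyrin repeat protein and not one of the 9 genes, completed the family for shares. It was at 99.5, 81.7, 105 and 64.7 CPM in placebo and at 7.92, 2.45, 32.5 and 25.3 CPM with praliciguat, without overlap (log2 ratio -2.36, SE 0.66, edgeR adjusted p = 0.444). The difference was -4.33 in the lower run alone and -1.52 in the upper. Its share of the family's TPM fell from 4.84 ± 1.79% to 1.01 ± 0.976%, and that of Ankrd23 rose from 88.8 ± 1.98% to 94.9 ± 0.831% (SD, n = 4; exact two-sided permutation p = 0.0286 each, adjusted 0.04 each, and 0.05 each on shares of expected counts). The Ankrd2 share was 6.41 ± 0.722% and 4.07 ± 1.62% (exact two-sided permutation p = 0.0857, adjusted 0.1, n = 4).

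**Figure D3:**
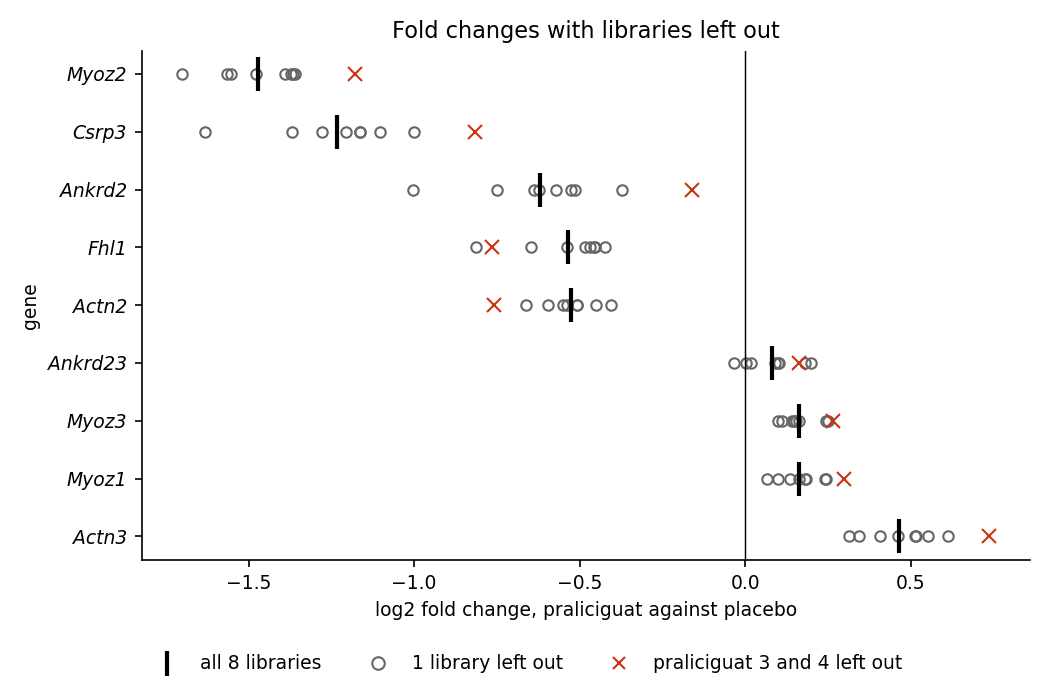
Log2 ratio of each of the 9 genes (x axis) with all 8 libraries (bars), with each library left out in turn (circles) and with praliciguat replicates 3 and 4 left out together (crosses). Myoz2 stays between -1.70 and -1.18 and Csrp3 between -1.63 and -0.82, whereas Ankrd2 runs from -1.0025 to -0.16 and Ankrd23 crosses 0.

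Within the groups, the same libraries were often the extremes. Praliciguat replicate 3 had the lowest level of its group in 8 of the 9 genes, all but Actn2, and praliciguat replicate 2 the highest in 6. Placebo replicate 3 had the lowest of its group in 5 genes and, with Actn2 and Myoz3, the highest in 2. Praliciguat replicate 3 is the library with the highest fibroblast and macrophage marker sums of all 8, and praliciguat replicate 2 the one with the lowest of both. The part of these cells in the levels was not tested. Relative to the mean, the spread with praliciguat was 52.2% for Csrp3 and 52.7% for Ankrd2, against 23.8% and 20.4% in placebo. For Myoz1 it was 15.0% against 12.3%, and for Myoz3 11.6% against 13.8%.

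Per gene length, Actn3 was the most abundant of the 9 in placebo at 3823 ± 619.9 TPM, followed by Myoz1 at 3120.4 ± 260.1 and Ankrd23 at 1915 ± 342 TPM (SD, n = 4). Fhl1 (1475 ± 314 TPM) and Actn2 (1141 ± 190.2 TPM) came next. The rest were lower: Myoz2 at 272 ± 60.8, Myoz3 at 171 ± 28.8, Csrp3 at 163 ± 38.1 and Ankrd2 at 138 ± 26.8 TPM. In this order, the ranges of neighbours were apart only between Myoz1 and Ankrd23 and between Actn2 and Myoz2. With praliciguat Myoz3 (185 ± 14.4 TPM) was above Myoz2 (94.9 ± 25.8 TPM) in all 4 libraries, with ranges apart. In placebo Myoz2 was above Myoz3 in all 4. Csrp3 and Ankrd2 also stood in opposite order, Ankrd2 being the higher in all 4 praliciguat libraries and Csrp3 in all 4 placebo libraries.

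Measured by the root mean square difference of log2 CPM, centred on each gene, over the 8 libraries, the nearest to Csrp3 among the other 8 genes was Myoz2, at 0.28. Of the 12950 genes outside the 9 that were compared none was nearer, the closest being Pcp4l1 at 0.29. Left out of the comparison were symbols of Gm or LOC plus digits, symbols ending in Rik, microRNAs and small RNAs. Pcp4l1 (0.27) and Dok5 (0.26) were the nearest to Myoz2. Slc1a1, a glutamate transporter, was near Csrp3 (0.37) and Ankrd2 (0.20), and Vipr1, a receptor of vasoactive intestinal peptide, was nearest to Ankrd2 (0.17). Patj and Adprhl1 were nearest to Actn2, both at 0.09, and Ccdc6 (0.08) and Phka1 (0.11), the muscle phosphorylase kinase subunit, to Actn3. Vgll2, a muscle cofactor of TEAD factors, was nearest to Fhl1 (0.11). Within the 9 genes Actn2 lay nearest to Fhl1 (0.26), and Actn3 nearest to Myoz1 (0.22). A gene with little variation is near many others, since the median distance of the genes compared was 0.85 to Myoz2 and 0.43 to Actn2. The distance spans both groups, so genes with a like difference between the groups are near by construction.

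Of 33 other Z-disc genes and relatives of the 9, 32 were tested (Nebl had at most 4 counts). EdgeR called 0 of them in either direction, against 0% of all genes, and 4 lay lower and 0 higher at an unadjusted p under 0.05, where 3.78% and 1.95% of all genes did so. In 3 the praliciguat libraries all lay below placebo and in 0 above it, against 2.54% and 1.32% of all genes. Their median log2 ratio was -0.04, with 19 below 0, and without praliciguat replicate 3 it was 0.00027, with 16 below 0. Desmin (Des), the linker of neighbouring Z-discs, was at 4014.5 ± 80.1 against 4072 ± 372 CPM, and Ldb3, which binds alpha-actinin, at 1970 ± 278 against 1989 ± 203 CPM (SD, n = 4). Both were picked out after their values were seen.

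The 4 of lowest p were Pdlim1, Smpx, Ankrd1 and Lmcd1. Pdlim1, a PDZ and LIM protein that binds alpha-actinin, was at 62.1, 47.8, 61.0 and 66.8 CPM in placebo and at 28.6, 29.6, 31.9 and 34.5 CPM with praliciguat (log2 ratio -0.93, SE 0.12, edgeR adjusted p = 0.0777). Smpx, a small stretch-responsive muscle protein, was at 265, 292, 273 and 263 CPM in placebo and at 199, 209.6, 195 and 211 CPM with praliciguat. Its difference was small but the spread within each group was smaller (log2 ratio -0.42, SE 0.08, edgeR adjusted p = 0.202). Neither gene overlapped between the groups, and DESeq2 called both lower. Lmcd1, a LIM protein that binds GATA factors, was at 233 ± 31.4 against 173 ± 40.5 CPM (SD, n = 4), with overlap.

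**Figure D4:**
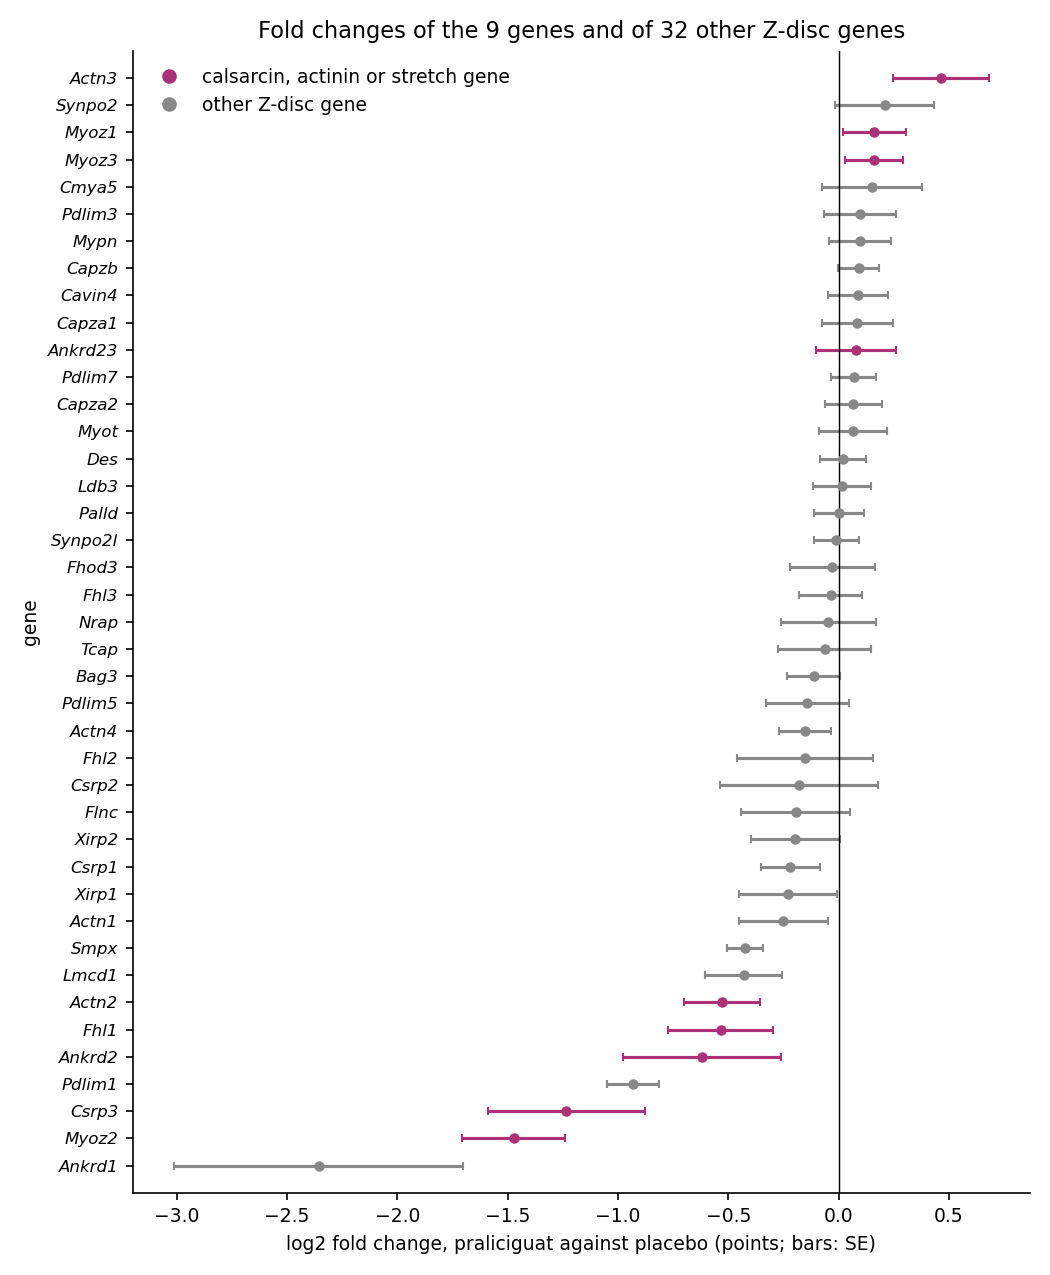
Log2 ratio of praliciguat against placebo (x axis; points, with SE bars) for the 9 genes and 32 other Z-disc genes (y axis), in order of the ratio. Ankrd1, Myoz2, Csrp3 and Pdlim1 lie lowest, from -2.36 to -0.93, and Actn3 highest at 0.46.

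Among 14 genes of titin, nebulin, the M-band and filament ends, edgeR called 0 and the median log2 ratio was 0.03 (-0.04 to 0.09 with 1 library left out). Myom3, an M-band protein of slow and intermediate fibres, had 84.2 ± 54.4 against 27.9 ± 8.75 CPM, and Lmod2, a leiomodin of the thin filament end, 305 ± 41.7 against 202 ± 82.6 CPM (SD, n = 4), both with overlap. Myom2 (0.18 ± 0.13 SE) and Neb, nebulin (0.19 ± 0.17 SE), had the next lowest p. Of 15 genes of calcineurin, its regulators and its targets, which calsarcins touch through calcineurin, edgeR called 0 (0% of all genes). At an unadjusted p under 0.05 there were 0, against 3.78% (lower) and 1.95% (higher) of all genes. Their median log2 ratio was -0.02 (-0.06 to 0.09 with 1 library left out). Nfatc3 was at 41.6 ± 5.98 against 49.4 ± 6.40 CPM and Rcan1 at 68.3 ± 10.8 against 57.2 ± 8.12 CPM, while Ppp3r1 and Rcan2 had log2 ratios of 0.19 ± 0.12 and -0.32 ± 0.23 (SE).

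The fibre type genes give the setting of these values. Of 10 slow fibre genes edgeR called 0 (0% of all genes) and DESeq2 called 7 lower, against 0.842% of all genes. Of the 10 log2 ratios 9 were below 0, against 44.8% of all genes, with a median of -2.56. Without placebo replicate 3, the placebo library with the lowest sum, edgeR called 5 of the 10 lower, and 5 of all 13683 genes tested. Their summed level was 880 to 1976 CPM in placebo and 379 to 554 CPM with praliciguat. Tnnt1, Tnni1, Atp2a2 and Myl2 had the lowest p, with log2 ratios of -2.99, -2.83, -2.01 and -3.75. Over the 10 slow fibre genes the log2 ratios ran from -3.75 for Myl2 to 0.30 for Casq2, the slow form of calsequestrin, with Myl3 at -0.31. Those of Myoz2 (-1.47) and Csrp3 (-1.23) lay inside this wide range and above the median. Also inside it were Ankrd2 (-0.62), Fhl1 and Actn2 (-0.53 each), Ankrd23 (0.08), and Myoz1 and Myoz3 (0.16 each). Actn3 (0.46) lay above it. Casq2 and Myl3 were picked out after their values were seen. Of 13 fast fibre genes edgeR called 0 (0% of all genes) and DESeq2 called 1 lower (Myh2), against 0.842% of all genes. Of these 13 genes 10 lay above 0 and 3 below it (44.8% of all genes lay below), with a median of 0.08. Myh2 (-1.56 ± 0.22 SE), Tpm1 (0.29 ± 0.12), Myh1 (-0.46 ± 0.20) and Casq1 (0.28 ± 0.16) had the lowest p. The part of fibre type composition in the levels of the 9 genes was not tested.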

How the data were processed

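Per the labels' protocols, Tri Reagent RNA from snap-frozen muscle went into stranded mRNA libraries. STAR 2.5.3a, RSEM 1.2.28, Trimmomatic, FastQC and the mm10 build are named by the submitters' processing notes. How strand was set in counting is not stated there. Per the file headers, the authors deposited RSEM expected counts, TPM values and effective gene lengths for each library. The expected counts of the 9 genes were whole in every library (tolerance 0.001). Of 15 pairs of relatives, Actn2 and Actn3 shared 2 windows of 50 bases in GENCODE M21 transcripts and the others 0 (a check added after the data were seen). Windows were taken at every base, so the 2 may overlap.

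The test was the robust quasi-likelihood F test of edgeR 4.0.16 (R 4.3.3) on rounded expected counts (TMM scaling, filterByExpr, Benjamini-Hochberg adjustment over 13569 genes, threshold 0.05), with the group and no covariate. DESeq2 1.42.0 and limma 3.58.1 were alternatives, beside other scalings and filters, TPM in place of counts and leaving out libraries. CPM values use the TMM-scaled library size; log2 CPM has a prior count of 2. A count of 0 allows a level of up to 0.0875 to 0.134 CPM (3 counts, counting error only). Shares were compared by exact permutation over 70 groupings. The scripts were checked on simulated counts. Replicates were numbered in accession order and pair nothing. Gene lists cover other Z-disc genes, titin and the M-band, calcineurin, slow and fast fibres, and cell markers. Named genes are the 9, the called genes of each list or else up to 4 of lowest p, and the 2 nearest genes of a member in log2 CPM. The members, lists and shares were chosen with earlier results of these data known. Nothing of coordinates or sequence is given for Myoz3, and no protein sequence was used here.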

Additional observations from a re-analysis of the deposited data

Results flagged for a closer look

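Fhl1 in praliciguat replicate 4 was far from the other libraries of its group: 1851 CPM, with the next highest at 1047 CPM. The gap was 0.867 of the group's whole range, above the value that 4 samples pass by chance in about 1 in 20 groups, and 18 groups were examined. This library also had the highest Actn2 level of its group (1562 CPM). The other 8 genes had no library that far apart in either group. Without it, Fhl1 had a log2 fold change of -0.81 in place of -0.53.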

How the results depend on the processing

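EdgeR called 0 genes in either direction. DESeq2 called 15 higher and 114 lower over all genes, and 2 of the 9 genes (Myoz2 and Csrp3), 2 other Z-disc genes, 7 slow fibre genes, 1 fast fibre gene and 1 gene of new fibres lower. Limma-voom called 2 genes lower, 1 of them a slow fibre gene. With the run of title numbers as a block edgeR called 3 lower, among them 1 other Z-disc and 1 slow fibre gene. With praliciguat replicates 3 and 4 both left out it called 6 higher and 79 lower, 1 of these an other Z-disc gene, and at an adjusted p under 0.1 it called 11 lower. Leaving out 1 library at a time gave 0 to 5 genes lower and 0 to 5 slow fibre genes lower, 5 being without placebo replicate 3. On shares of expected counts the differences in percentage points were -9.87 for Actn2, -4.20 for Myoz2, -3.03 for Ankrd1 and 4.13 for Ankrd23 (adjusted exact permutation p = 0.05 each) and 3.72 for Myoz1 (adjusted 0.1), none under the threshold. The Myoz3 share difference ran from -0.096 to 0.732 with 1 library left out (-0.034 without placebo replicate 2) and was -0.513 in the upper run alone. The log2 ratio of Ankrd23 ran from -0.035 to 0.20, the lowest without placebo replicate 3. The other 8 genes kept their direction in all 20 alternatives. The cause of these differences was not tested. No paired analysis was possible because the replicate numbers follow accession order and pair no libraries.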

Other observations

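Of the marker lists of other cells, new fibres and fibre identity, several had directions that rested on 1 library. The 9 genes do not mark the other cells, but they are genes of muscle fibres. All 5 endothelial genes had log2 ratios below 0 (median -0.35), as they did with each library left out in turn. With praliciguat replicates 3 and 4 both left out, 3 of the 5 lay below 0 (median -0.19). All 4 adipocyte genes had ratios above 0 (median 0.98), also with each library left out, although the median was 1.79 without placebo replicate 3. It was 0.16 with praliciguat replicates 3 and 4 both left out. All 4 macrophage genes and 3 of 4 fibroblast genes had ratios above 0 (medians 1.03 and 0.14), but without praliciguat replicate 3 all 4 of each lay below 0 (medians -0.31 and -0.41). With limma-voom the fibroblast median was -0.11. All 4 smooth muscle genes and all 4 Schwann cell genes had ratios below 0 (medians -0.36 and -0.58), but without placebo replicate 1 the medians were 0.10 and -0.14, with 1 and 3 of 4 below 0. Of 4 genes of new fibres 3 lay below 0 (median -0.64), and DESeq2 called 1 of them, Myh3, the embryonic myosin, lower (0.842% of all genes). The median of the 4 genes of new fibres was 0.33 without placebo replicate 3 and -2.09 without praliciguat replicate 3. Of 5 genes of fibre identity 3 lay above 0 (median 0.22; 0.09 without praliciguat replicate 2). EdgeR called none of these genes (0% of all genes). At an unadjusted p under 0.05, 3 of the 5 endothelial genes, 1 of the 4 of new fibres and 1 of the 2 tested heart genes lay lower. Over all genes, 3.78% lay lower at that cut and 1.95% higher.

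The group difference of the 9 genes was also compared between the lower and the upper run of title numbers, an analysis added after the data were seen. EdgeR's adjusted p for that interaction ran from 0.308 for Myoz3 to 0.9747 for Myoz1, and 2 of all 13569 genes passed.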
